A study of Homo sapiens with 2 samples.

Results

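Aminoacyl-tRNA synthetases join each amino acid to its transfer RNA (tRNA), and so supply the charged tRNAs that ribosomes read in the cytosol and in mitochondria. The genes described here are the 20 synthetase genes of the cytosol, the 17 of mitochondria and the 3 scaffold genes AIMP1, AIMP2 and EEF1E1. They were chosen by symbol, as letter codes ending in ARS1 or ARS2 with EPRS1, FARSA, FARSB and the scaffold genes. No measured value entered that rule, but it was set with earlier results of these data known. Of these 40 genes, 35 had a named probe, carried by 40 of the 47323 probes of the array, and 34 were detected. The other 5 were not analysed here.

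The samples were A4573 cells, an established Ewing sarcoma line, in a wild-type form and in a radiation-adapted form whose label carries 4 Gy. Each culture gave total RNA for a single Illumina bead array, so n was 1 per group and no test between the groups could be made. The labels do not give the schedule of irradiation, the interval before harvest or whether the adapted cells were a clone. Detection required a p of at most 0.01, meaning that a probe was brighter than nearly all negative controls of its array, and 37.8% of wild-type and 35.3% of adapted probes met it. The highest intensities of the arrays were 28876 and 26963. All 6 Ewing sarcoma markers (CD99, FLI1, NKX2-2, STEAP1, LIPI and CCND1) were detected in both arrays. Their summed intensity was 22649 in the wild-type and 18541 in the adapted array, a fall that came mainly from CCND1 (14496 and 9693). Before normalisation FLI1 (370 and 634), LIPI (235 and 595), STEAP1 and NKX2-2 read brighter in the adapted array. After it, 3 of the 6 were higher there (FLI1, LIPI and STEAP1), against 50.6% of all detected genes. NKX2-2 (log2 difference -0.09), CD99 (-0.55) and CCND1 (-0.65) were then lower. Of the markers measured for other cells, 2 of 6 for leukocytes (CD14 and CD68), 0 of 3 for endothelium, 1 of 4 for epithelium (EPCAM) and 5 of 6 for fibroblasts were detected in each array. Their summed intensities in the wild-type and adapted arrays were 1306 and 1230 for leukocytes, 374 and 390 for endothelium, 636 and 677 for epithelium, and 2946 and 2683 for fibroblasts. These sums include undetected probes at background. Within the fibroblast sum, after normalisation, 3 of the 5 detected markers fell by 1.5-fold or more (PDGFRB, THY1 and COL1A1). LUM rose by that much, and the median log2 difference of the 5 was -0.74. The shares over all detected genes were 12.3% downward and 11.8% upward. Without background correction 2 fell that far (PDGFRB and THY1), against a share of 5.8%, and LUM rose, against 4.21%. The median was then -0.32, which was the value of COL1A1, a dim marker (217 and 178). The leukocyte marker PTPRC and the fibroblast marker PDGFRA were not detected in either array. What part other cells had in the results was not tested.

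Each cytosolic synthetase is encoded in the nucleus and translated in the cytosol, and most mitochondrial ones come from separate nuclear genes and are imported. GARS1 and KARS1 serve both compartments, and EPRS1 joins glutamyl and prolyl activity in a single chain. In animal cells several cytosolic enzymes, EPRS1 among them, form the multisynthetase complex around AIMP1, AIMP2 and EEF1E1. When amino acids are short or unfolded protein accumulates, phosphorylation of the initiation factor eIF2 favours translation of ATF4, a transcription factor that raises many genes of amino acid supply, a group of cytosolic synthetases among them.

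In the adapted array 3 of the 18 detected cytosolic enzymes (16.7%), those for leucine, methionine and asparagine, were 1.57-fold to 1.84-fold higher, and 0 were at least 1.5-fold lower. Differences below are log2 adapted minus log2 wild type after background correction and quantile normalisation, and 1.5-fold corresponds to 0.58. The 18 detected cytosolic enzymes had a median difference of 0.45 and ranged from -0.58 to 0.88, and the 16 detected mitochondrial enzymes had a median of 0.18 and ranged from -0.52 to 0.74. The median of all 11296 detected genes was 0.01, with quartiles of -0.37 and 0.36. Of the 34 enzymes, 6 (17.6%) were at least 1.5-fold higher, against 11.8% of all detected genes, and 0 were at least 1.5-fold lower, against 12.3%. None differed by 2-fold, against 2.76% of all genes higher and 4.43% lower. A difference above 0 was found for 25 of the 34 (73.5%), against 50.6% of all genes and 52.1% of those in the brightness range of the cytosolic or of the mitochondrial enzymes. Genes in the same range of brightness as the cytosolic enzymes had a median of 0.02, with 9.56% at least 1.5-fold higher and 10.4% lower; in the range of the mitochondrial enzymes the median was also 0.02, with 12.3% higher and 12.8% lower. As a measure of error within an array pair, 2 probes of the same gene differed with a standard deviation (SD) of 0.28 per probe over 2326 genes, and of 0.20 over the 684 genes whose probes were as bright as the cytosolic enzymes. That scatter holds the differences between probes and not those between cultures.

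**Figure D1:**
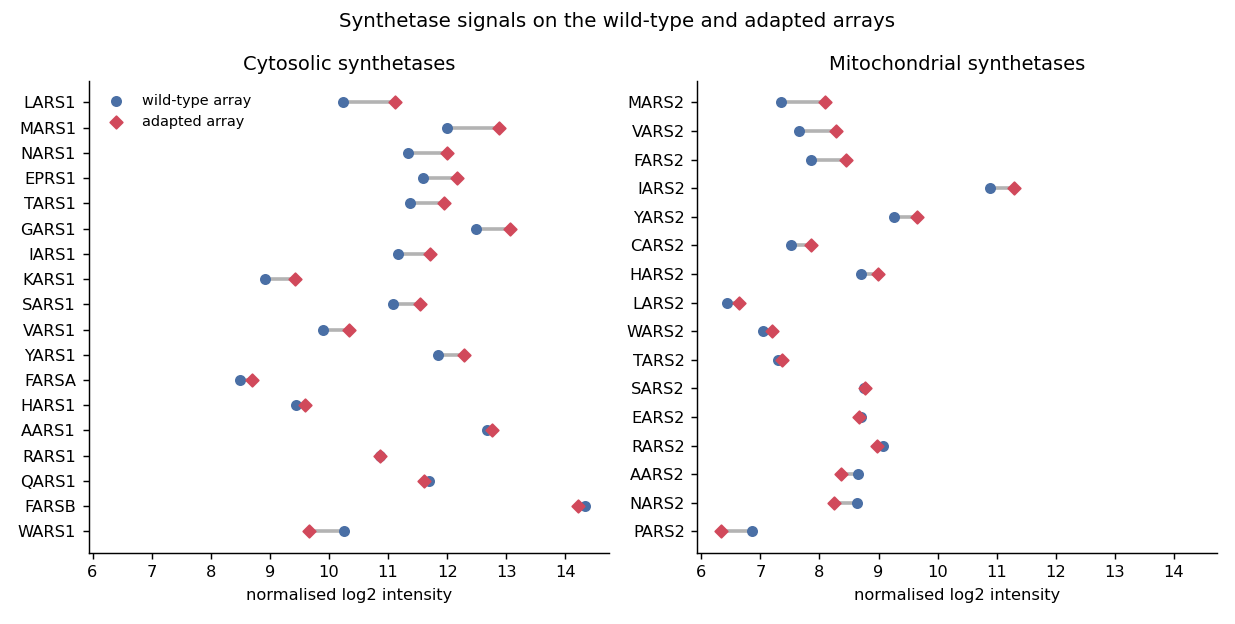
Normalised log2 intensity (horizontal axis) of the 18 cytosolic and 16 mitochondrial synthetases in the wild-type array (circles) and the adapted array (diamonds), 1 array each, ordered by difference. The diamonds of LARS1, MARS1 and NARS1 lie 0.65 to 0.88 to the right of the circles and that of WARS1 lies 0.58 to the left; levels of different probes are not comparable.

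Among the enzymes of the multisynthetase complex, LARS1, which charges leucine tRNA and also senses leucine for mTORC1, had an intensity before normalisation of 1210 in wild-type and 2526 in adapted cells. Its normalised difference was 0.88, or 1.84-fold, which ranked 413 from the top among 9857 genes detected in both arrays. MARS1, the methionine enzyme that charges both initiator and elongator tRNA, read 3848 and 8038, a difference of 0.87. Both were brighter in the adapted array by more than any other synthetase. EPRS1, for glutamate and proline, read 2894 and 5074 and was just under the threshold at 0.58, or 1.497-fold. IARS1, for isoleucine, read 2197 and 3760, and its difference of 0.54 came from 1 probe because a further probe was not detected. KARS1, for lysine in both compartments, read 561 and 861 (0.51). The complex was not uniform, since QARS1, for glutamine, read 3112 and 3544 (-0.07) and RARS1, for arginine, read 1811 and 2128 (-0.0042); with median scaling in place of quantile normalisation these 2 were 0.20 and 0.26. Of the 7 detected complex enzymes, 2 passed 1.5-fold upward and 0 downward, 5 lay above 0, and the median was 0.54; of genes as bright as the cytosolic enzymes, 9.56% passed upward and 10.4% downward. The scaffold gene AIMP1 was not detected in either array, with intensities of 131 and 137 and detection p of 0.347 and 0.225, and AIMP2 and EEF1E1 were not analysed here.

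Cytosolic enzymes outside the complex had a median of 0.44 over 11 genes, of which 1 passed 1.5-fold upward, 0 passed it downward and 9 lay above 0. Of genes as bright as the cytosolic enzymes, 9.56% passed upward and 10.4% downward. NARS1, the asparagine enzyme, read 2477 in the wild-type and 4568 in the adapted array, a difference of 0.65. TARS1 for threonine (0.57), GARS1 for glycine in both compartments (0.57), SARS1 for serine (0.46), VARS1 for valine (0.44) and YARS1 for tyrosine (0.44) followed, all higher in the adapted array and each under 1.5-fold. GARS1 read 5555 and 8997, TARS1 2512 and 4395, SARS1 2101 and 3384, and YARS1 3437 and 5448. VARS1 had a bright probe at 981 and 1525 and a dim one at 155 and 158, barely above background, whose difference was 0.08. The alanine enzyme AARS1, which read 6148 and 7542, differed by 0.09, and the histidine enzyme HARS1, at 751 and 956, by 0.15. Phenylalanyl-tRNA synthetase is a tetramer of alpha chains encoded by FARSA and beta chains encoded by FARSB. FARSA read 445 and 560 (0.20), and FARSB read 21300 and 18806 (-0.12), close to the top of the range of the arrays; a further FARSB probe was not detected in either array.

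WARS1, the tryptophan enzyme, was the lowest of the cytosolic enzymes, with FARSB (-0.12) next above it. Its brighter probe (ILMN_2337655) read 1217 in the wild-type and 997 in the adapted array, and its other probe (ILMN_1727271), annotated to another transcript of the gene, read 769 and 630. Both probes gave a difference of -0.58, or 1.496-fold lower, just under the threshold, and -0.31 for the brighter probe with median scaling. Interferon gamma is a known inducer of WARS1. On a list of 10 genes known to respond to it, 7 were detected; 5 of these passed 1.5-fold downward, against 12.3% of all detected genes, and 0 upward, and their median difference was -0.82. Without background correction 3 passed downward, against 5.8% of all detected genes. The guanylate-binding protein GBP1 read 329 and 178 (-1.84), and its other probe gave -1.33. The peptide transporter TAP1 read 620 and 449 (-0.82). The transcription factor IRF1 read 217 and 143 and was not detected in the adapted array, so on the background-corrected scale it was at least 2.40-fold lower. The immunoproteasome subunit PSMB8, not detected there either, was at least 3.69-fold lower on that scale by its brightest probe. Measured differences of its 3 detected probes ran from -2.56 to -1.17. Both bounds depend on the background correction, and the measured differences without it were smaller. Differences without background correction were -0.95 for GBP1, -0.64 for TAP1, -0.63 for IRF1, -1.02 for PSMB8 and -0.52 for WARS1. Whether the levels of WARS1 and of these genes are linked was not tested.

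Of the 16 detected mitochondrial enzymes 3 (18.8%) passed 1.5-fold upward, against 12.3% of genes in their brightness range, 0 passed it downward, against 12.8%, and 11 lay above 0. MARS2, the mitochondrial methionine enzyme, read 268 in wild-type and 404 in adapted cells, a difference of 0.74. That value came from 1 probe, because a further MARS2 probe (139 and 145) was not detected in either array. VARS2, for valine, read 303 and 445 (0.62), and FARS2, for phenylalanine, read 329 and 490 (0.60). These 3 were dim enough for the background correction to matter, and without it they read 0.48, 0.42 and 0.43, all under 1.5-fold. The next values were 0.41 for IARS2 (isoleucine; 1844 and 2849), 0.40 for YARS2 (tyrosine; 679 and 990), 0.33 for CARS2 (cysteine), 0.29 for HARS2 (histidine), 0.20 for LARS2 (leucine) and 0.16 for WARS2 (tryptophan). TARS2 for threonine (0.07), SARS2 for serine (0.01) and EARS2 for glutamate (-0.04) lay near 0, and the EARS2 probe is annotated to a non-coding transcript of its gene.

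At the lower end were RARS2 for arginine (-0.11), AARS2 for alanine (-0.29), NARS2 for asparagine (-0.38) and PARS2 for proline (-0.52). NARS2 read 480 and 440 before normalisation, and PARS2 read 224 and 195. PARS2 was at -0.66 in the authors' processed values, where it was the only synthetase at least 1.5-fold lower, and at -0.24 without background correction. Whether the medians of the cytosolic and mitochondrial enzymes differ beyond error could not be tested with 1 array per group.

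For 15 amino acids both a cytosolic and a mitochondrial enzyme were detected, which gave 16 pairs because phenylalanine has both cytosolic chains; EPRS1 stood in both the glutamate and the proline pair. FARS2 likewise stood in both phenylalanine pairs. In 9 pairs both enzymes were above 0, in 1 both were below 0, in 6 the signs were opposite, and the cytosolic enzyme had the larger difference in 11. Of single genes, 50.6% of all detected ones and 52.1% of those in either brightness range lay above 0. These counts depend on the scaling. With median scaling the arginine pair (0.26 and 0.11) and the glutamate pair (0.84 and 0.19) were above 0 in both compartments. Methionine was the amino acid with both enzymes at least 1.5-fold higher (0.87 and 0.74). Isoleucine (0.54 and 0.41), tyrosine (0.44 and 0.40) and valine (0.44 and 0.62) also had similar values in both compartments. The widest gaps were those of proline, at 0.58 for EPRS1 against -0.52 for PARS2, and of asparagine, at 0.65 for NARS1 against -0.38 for NARS2. Tryptophan ran the other way, at -0.58 for WARS1 against 0.16 for WARS2. HARS1 and HARS2 are adjacent genes on chromosome 5 and read 0.15 and 0.29, and EPRS1 and IARS2, parted by 1 protein-coding gene on chromosome 1, read 0.58 and 0.41.

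**Figure D2:**
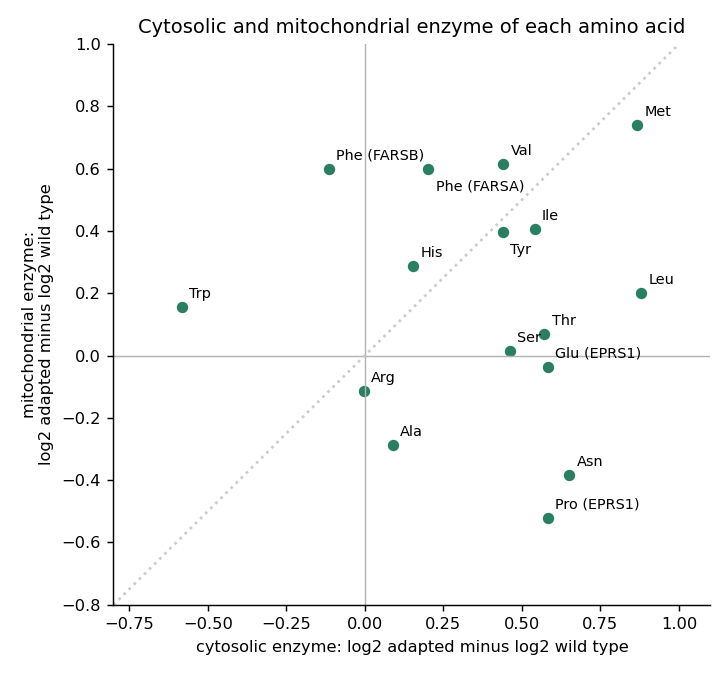
Difference (log2 adapted minus log2 wild type) of the cytosolic enzyme (horizontal axis) and the mitochondrial enzyme (vertical axis) for each of the 16 pairs; the dotted line marks equal values. Methionine lies high on both axes, proline and asparagine lie at the lower right, and tryptophan stands alone at the left.

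Synthetases fall into 2 structural classes with unrelated catalytic folds. The 18 detected class I enzymes, among them those for leucine, methionine, isoleucine and valine, had a median of 0.40, and 4 of them passed 1.5-fold upward and 0 downward. The 16 detected class II enzymes, among them those for asparagine, alanine and proline, had a median of 0.18, and 2 passed upward and 0 downward. EPRS1 (0.58), which joins glutamyl and prolyl activity, was counted in class I alone, so the proline enzyme of class II is PARS2 (-0.52). Each class held enzymes of both compartments, and the 11.8% of all detected genes that were 1.5-fold higher is the background for both counts.

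The cytosolic enzymes were also split by general knowledge of their response to ATF4, with earlier results of these data known. The 12 detected enzymes known as ATF4-responsive (AARS1, EPRS1, GARS1, IARS1, LARS1, MARS1, NARS1, SARS1, TARS1, VARS1, WARS1 and YARS1) had a median of 0.56; 3 passed 1.5-fold upward, 0 passed it downward and 11 lay above 0, where 9.56% of genes as bright as the cytosolic enzymes passed upward and 10.4% downward. The 6 others (FARSA, FARSB, HARS1, KARS1, QARS1 and RARS1) had a median of 0.07; 0 passed in either direction and 3 lay above 0. In the first group 10 enzymes lay between 0.44 and 0.88, and AARS1 (0.09) and WARS1 (-0.58) lay apart; in the other group KARS1 read 0.51 and the rest ran from -0.12 to 0.20. These are descriptions of 1 pair of arrays and the difference between the groups was not tested.

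ATF4 itself read 14512 in the wild-type and 18993 in the adapted array (0.40), but its 3 detected probes ran from -0.14 to 0.69. Of 11 genes that act with or upstream of it, ATF4 included, 3 passed 1.5-fold upward, against 11.8% of all detected genes, and 0 downward, and the median was 0.22. The higher ones were EIF2AK2, the double-stranded RNA-activated eIF2 kinase (0.74), PPP1R15B, a subunit of the eIF2 phosphatase (0.64), and GCN1, which activates the eIF2 kinase that senses uncharged tRNA (0.62). Without background correction EIF2AK2 read 0.66, GCN1 0.57 and PPP1R15B 0.23. That sensing kinase, EIF2AK4, read -0.36, and the transcription factor NFE2L1 read -0.58.

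Of 27 detected known ATF4 targets outside the synthetases, 13 (48.1%) passed 1.5-fold upward in the adapted array (11.8% of all detected genes did) and 0 downward, 25 lay above 0, and the median was 0.62, or 0.50 with bounds; SLC7A11, detected in the adapted array alone, counted at its bound of 1.33-fold. CTH, which makes cysteine from cystathionine, read 409 and 1238 (1.67), and DDIT4, an inhibitor of mTORC1, read 1438 and 4800 (1.56). The glutathione-degrading enzyme CHAC1 read 359 and 802 (1.28), and the leucine-binding mTORC1 regulator SESN2 read 224 and 397 (1.20). DDIT4 also responds to hypoxia. XPOT, the exportin that carries tRNA out of the nucleus, read 361 and 494 (0.41). Asparagine synthetase, ASNS, a textbook ATF4 target, read 0.15.

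**Figure D3:**
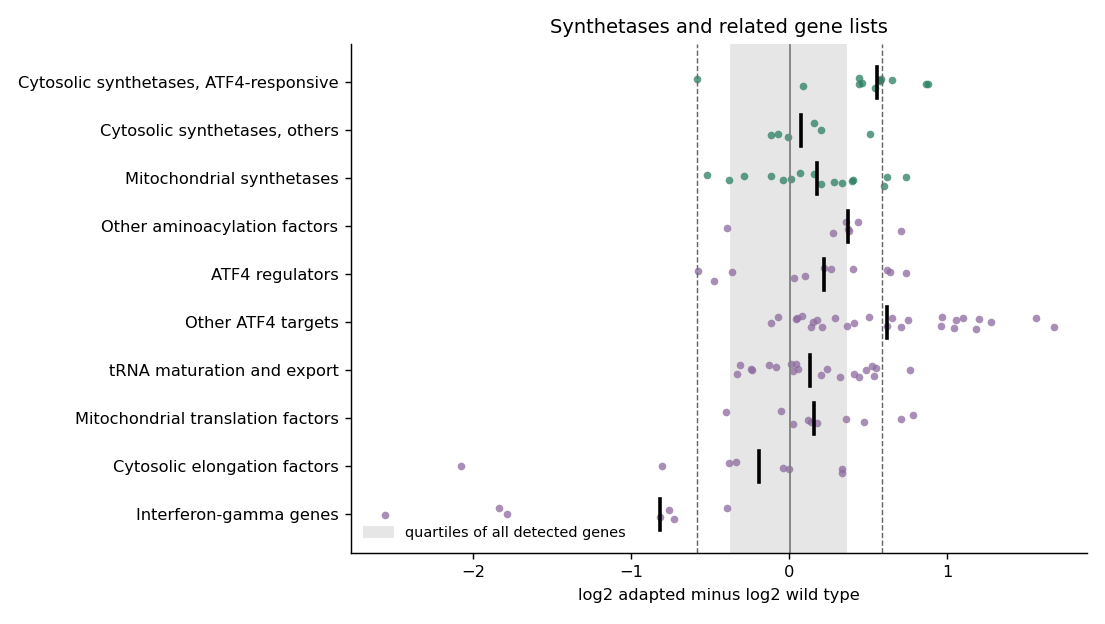
Difference (log2 adapted minus log2 wild type) of each detected gene on the synthetase lists (green) and related lists (purple); black bars are list medians, the grey band spans the quartiles of all detected genes (-0.37 to 0.36) and dashed lines mark 1.5-fold. Points of genes detected in 1 array only are measured differences and not bounds. The ATF4-responsive synthetases and the other ATF4 targets have medians of 0.56 and 0.62, outside the band, and the other cytosolic enzymes lie at 0.07.

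ATF4 binds, with a C/EBP partner, to composite elements whose core was searched here as TGATGNAA on both strands. The promoters were the 250 bases before and 50 after the RefSeq start of each gene (build GRCh38.p14), and 33 of the 40 genes matched by symbol. The element was found in 7 of these 33 promoters (21.2%), against 3.67% of 27305 promoters of all genes. It was found in 6 of 16 cytosolic enzymes (37.5%) and in 1 of 14 mitochondrial enzymes. Of the ATF4-responsive enzymes with a promoter entry 6 of 10 held it, and 0 of the 6 others did. Those 6 include CARS1, whose level was not analysed here. Of the known ATF4 targets outside the synthetases, 5 of 22 (22.7%) held it. Both lists of ATF4 genes came from general knowledge of ATF4, so these shares are no independent test. The windows of 30 bases around the matches are shown because they separate members of the same family, with the element in capitals and each sequence written 5′ to 3′ on the strand of its gene; where the element lies on the opposite strand the capitals are its reverse complement.
MARS1 (chr12:57488053-57488082, plus strand): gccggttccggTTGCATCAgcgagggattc
NARS1 (chr18:57621804-57621833, minus strand): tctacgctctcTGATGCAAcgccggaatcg
TARS1 (chr5:33440956-33440985, plus strand): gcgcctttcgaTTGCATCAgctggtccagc
IARS1 (chr9:92293692-92293721, minus strand): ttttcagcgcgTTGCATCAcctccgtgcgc
CARS1 (chr11:3057407-3057436, minus strand): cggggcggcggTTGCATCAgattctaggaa
AARS1 (chr16:70289675-70289704, minus strand): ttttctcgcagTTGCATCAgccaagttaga
YARS2 (chr12:32756076-32756105, minus strand): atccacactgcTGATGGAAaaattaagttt

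Read as the element, 6 of the 7 matches were TGATGCAA and that of YARS2 was TGATGGAA. In MARS1, NARS1, TARS1, IARS1 and CARS1 the match lay within 20 bases of the start, its first base between positions -13 and 14, and in AARS1 and YARS2 it began at -187 and -197. Of the enzymes with a match near the start, the 4 that were measured read 0.87 (MARS1), 0.65 (NARS1), 0.57 (TARS1) and 0.54 (IARS1). AARS1, with the same letters farther upstream, read 0.09, and YARS2, with its match at -197, read 0.40. Whether the position of a match bears on these levels was not tested. GARS1 (0.57), EPRS1 (0.58), KARS1 (0.51) and SARS1 (0.46) had no match in this window, and neither had WARS1 (-0.58). LARS1, VARS1 and YARS1 had no promoter entry. A match is a run of letters and not a measured binding site, and binding was not measured here. The E-box CACGTG, the core site of MYC and related factors, was found in 4 of 33 promoters (12.1%), those of IARS1, CARS2, EARS2 and MARS2, against 7.43% of all promoters. In IARS1, which held both motifs, the E-box began at -186 and did not overlap the C/EBP-ATF match.

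**Figure D4:**
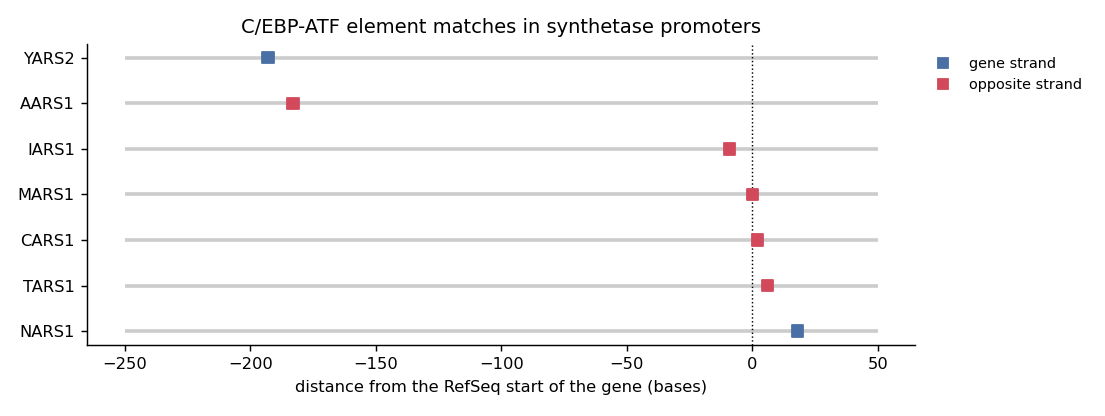
Position of each TGATGNAA match (squares, coloured by strand) in the 7 synthetase promoters that hold one, in bases from the RefSeq start of the gene (dotted line); grey bars span the 250 bases before and 50 after it. The matches of IARS1, MARS1, CARS1, TARS1 and NARS1 lie at the start, and those of AARS1 and YARS2 begin at -187 and -197.

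Other genes of tRNA charging and translation were read in the same way. The background for their counts is the 11.8% of all detected genes that passed 1.5-fold upward and the 12.3% that passed it downward. Of 10 further aminoacylation genes 7 were detected, 1 passed 1.5-fold upward and 0 downward, and the median was 0.37. MTFMT, which formylates the initiator methionyl-tRNA of mitochondria and so acts directly after MARS2, read 272 and 406 (0.71, or 0.46 without background correction). GATC, a subunit of the mitochondrial glutamyl-tRNA amidotransferase, read 0.44, TARS3, a further cytosolic threonine enzyme, read 0.38 near background, and DTD1, which removes D-amino acids from tRNA, read -0.39. In tRNA maturation and export 1 of 20 detected genes passed 1.5-fold upward and 0 downward, and the median was 0.13. The higher one was HSD17B10 (489 and 861; 0.76), which besides its dehydrogenase role is a subunit of mitochondrial RNase P; the splicing endonuclease subunit TSEN15 (0.55) and the RNase P subunits POP1 (0.54) and POP5 (0.52) were under 1.5-fold.

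For the translation factors too, the background is 11.8% of all detected genes upward and 12.3% downward. Mitochondrial translation factors had a median of 0.16 over 10 detected genes, of which 2 passed 1.5-fold upward and 0 downward. These were the elongation GTPase GUF1 (0.78, or 0.34 without background correction) and the initiation factor MTIF2 (770 and 1399; 0.71). Cytosolic elongation factors, which receive the charged tRNAs, had a median of -0.19 over 8 genes, of which 0 passed 1.5-fold upward and 2 downward. With the mean over detected probes 1 of the 8 passed upward. EEF1B2 read 0.33 by its brightest probe, and its 5 detected probes ran from 0.33 to 1.03. EEF1A2, the tissue-restricted form of the factor that delivers charged tRNA to the ribosome, read 2351 and 738 (-2.08, or 4.22-fold lower). Its ubiquitous form EEF1A1 read 28876 and 26348 (-0.04), at or near the highest intensity of each array. EEF1G, a subunit of the exchange factor complex that also holds VARS1, read 21082 and 12302 (-0.80). Its reading was near the top of the range in the wild-type array only. The near-identical copies of EEF1A1 in the genome add to the uncertainty of its value.

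Background correction and scaling set how many synthetases passed 1.5-fold. Without background correction 3 enzymes (LARS1, MARS1 and NARS1; 8.82%) were higher by that much, against 4.21% of all detected genes, and 0 were lower, against 5.8%. In the authors' processed values 6 were higher (17.6%, against 15.5% of all genes) and 1, PARS2, was lower (against 15%). With median scaling 16 were higher (47.1%, against 19.1%) and 0 lower (against 9.03%), but the median of all genes then moved to 0.17; relative to that median 9 were higher, against 11.5% of all genes, and 1, PARS2, was lower, against 13.3%. The medians under this scaling were 0.71 for the cytosolic enzymes, against 0.27 for genes in their brightness range, and 0.27 for the mitochondrial ones, against 0.23. LARS1, MARS1 and NARS1 were at least 1.5-fold higher under each of these 4 settings, and the differences of QARS1, RARS1, EARS2 and RARS2 changed sign with median scaling. Relative to the median of all genes (0.008), NARS1 (0.591) fell just under the threshold in the authors' values. On that relative scale WARS1 passed 1.5-fold downward in the main values, and WARS1 and PARS2 did in the authors' values.

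**Figure D5:**
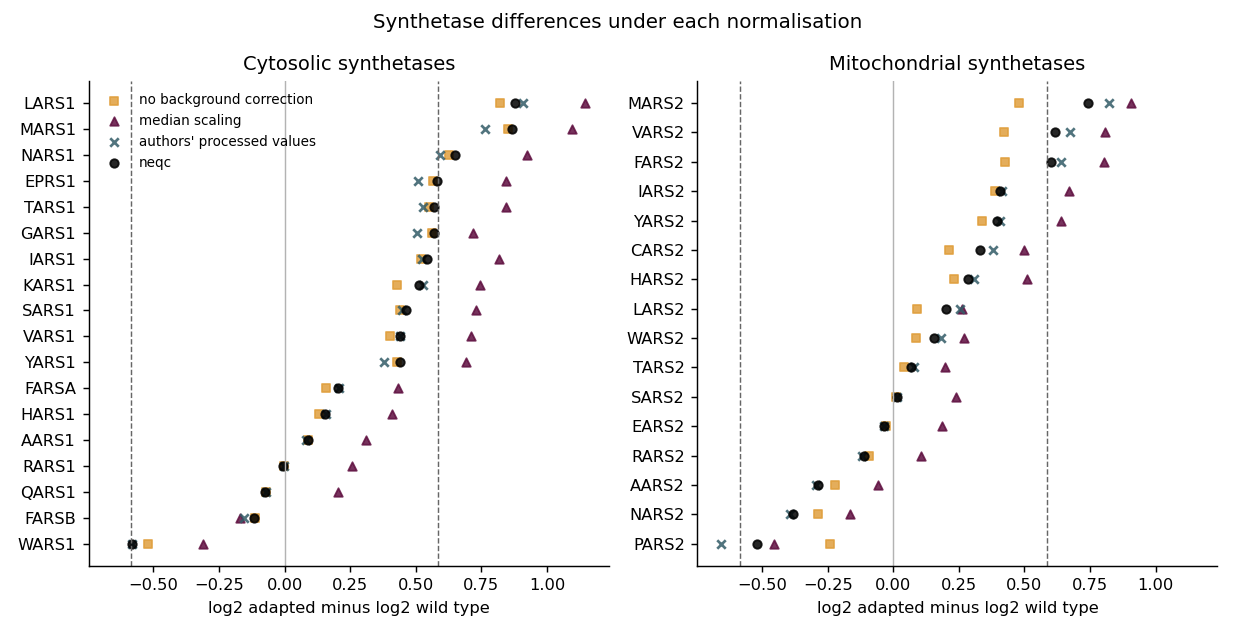
Difference (log2 adapted minus log2 wild type) of each cytosolic and mitochondrial synthetase under the main normalisation (neqc, circles), without background correction (squares), with median scaling (triangles) and in the authors' processed values (crosses); dashed lines mark 1.5-fold. The triangles lie to the right of the circles for all enzymes but FARSB, and LARS1, MARS1 and NARS1 lie beyond the right dashed line under all 4.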

How the data were processed

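The 2 bead arrays were grouped by the cell line label. Per the file headers, the deposited table gives for each probe an average intensity before normalisation and a detection p-value. A further table of the authors holds processed intensities, by a method not given in the sources used here. As 27.7% of values in each column lay below 0, background appears to have been subtracted. Both columns had a median of 10.6, which does not identify the normalisation. Probes were named from the platform annotation, updated by gene ID against RefSeq (GRCh38.p14): 30113 had 1 symbol, 8 several and 17202 were not listed.

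The neqc function of limma 3.58.1 (R 4.3.3) gave the main values (normal-exponential background from the detection p, offset of 16, quantile normalisation, log2). Genes needed detection in either array, and the brightest detected probe stood for each. Where the gene was undetected on the other array its difference is a bound, taken against that array's dimmest detected probe or the gene's own value, whichever is higher. Quantile normalisation removes any difference in total RNA. A single array per group allows no test. Members were named in full, other lists by counts, median and the 4 largest differences with ATF4, XPOT, TARS3 and IRF1. EEF1A1, EEF1B2, ASNS, EIF2AK4 and SLC7A11 were chosen after their values were seen. The members and lists were chosen with earlier results of these data known. The steps were tested on simulated data. Python 3.11.15 was used for the rest.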

Additional observations from a re-analysis of the deposited data

How the results depend on the processing

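Median scaling moved the medians to 0.71 for the cytosolic enzymes, 0.27 for the mitochondrial enzymes, 0.82 for the complex enzymes and 0.69 for the cytosolic enzymes outside the complex; the median of all genes was then 0.17. Without background correction the mitochondrial median was 0.0884, a slightly larger move than with median scaling, and with the mean over detected probes the median outside the complex was 0.26, where the dim VARS1 probe entered. Members at least 1.5-fold higher numbered 3 without background correction, 4 with an offset of 50, 16 with median scaling and 0 at a threshold of 2-fold, and members lower numbered 1 in the authors' processed values. Among all genes the higher ones numbered 475 without background correction, 2157 with median scaling, 877 with an offset of 50 and 312 at 2-fold, and the lower ones 655 without background correction and 500 at 2-fold. A detection p of 0.05 and no detection filter left the 34 enzymes and their values as they were. Of the scaffold genes AIMP1 alone had a named probe, which was not detected; with no detection filter it read 0.15. No paired analysis was possible because there was 1 array per group. Dim probes near background carry the least certain differences, and their number of replicates, 1, limits the precision of every value.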
